A study of Mus musculus with 15 samples.

Results

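The region described here is chromosome 10 from 90000001 to 100000000 bp (mm9), which holds 3311 of the 823355 HindIII sites listed in the deposited data and 3311 of the 41012 on its chromosome. It lies 17.9 to 27.9 Mb from the bait at Ifng, on the low-coordinate side. It was chosen by its reads under the Ifng bait, which were more in B cells than in 3T3-L1 cells, so that difference is described below without a test. Contacts were measured by 4C-seq, in which crosslinked chromatin is cut with HindIII and ligated, and the fragments joined to 1 chosen site, the bait, are amplified and counted. Baits lay at Ifng (site at 117870359 to 117870364 bp of chromosome 10), which encodes the cytokine interferon gamma, at Pparg on chromosome 6, which encodes the master nuclear receptor of fat cells, and at Lpin1 on chromosome 12, which encodes a phosphatidate phosphatase. The series compared chromatin folding along fat cell formation and between cell types.

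The 3T3-L1 cells are a mouse preadipocyte line, with no change of genotype stated, taken as preadipocytes on day 0, at intermediate stages on days 1 and 2, and as mature adipocytes on day 6. On day 0, cells that had been confluent received dexamethasone, 3-isobutyl-1-methylxanthine and insulin in serum. From day 2 they were fed insulin and serum, and thereafter serum, so days 1, 2 and 6 share that treatment and day 0 lacks it. Each day had 2 libraries per bait. The comparison cell was a line labelled as B lymphocytes, with no treatment, stage or line name given, and with 1 library per bait. 4C-seq of genomic DNA holds no expression values, so neither cell type could be checked against its marker genes.

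As background, a 4C read count at a site reflects how often that site lies near the bait in the nucleus, and it falls steeply with distance along the chromosome. Over many megabases chromosomes fold into segments of an open, gene-rich compartment and a compact, gene-poor one, and segments of the same kind tend to contact each other. Which segments belong to which compartment differs between cell types. In the RefSeq gene order of GRCm38.p6, another build than that of the files, this part of the chromosome runs from Apaf1, which encodes the scaffold of the apoptosome, to Kitl, which encodes the ligand of the receptor Kit, with 42 protein-coding genes from the first to the last. All 37 genes listed for this part were found in the table. Among them are Socs2, an inhibitor of cytokine signalling, Btg1, an antiproliferative gene prominent in lymphocytes, Dusp6, a phosphatase of the kinase ERK, and Dcn, Lum, Kera and Epyc, neighbouring genes of extracellular matrix proteoglycans. Because the builds differ, no gene was placed in a window.

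The Ifng libraries held 767419 to 2075226 reads, of which 58.6% to 93.2% lay on the bait site itself. Contacts were therefore expressed as a share of distal reads, meaning reads on chromosome 10 over 1 Mb from the bait, without a dense stretch of 1.5 Mb that lies 9.9 to 11.4 Mb from the bait on the same side. That stretch was left out because it took 41.3% to 64.4% of such reads in the 3T3-L1 libraries and 9.38% in B cells. Distal reads numbered 22070 to 154205 in the 3T3-L1 libraries and 59520 in B cells, so B cell depth in distal reads lay within the 3T3-L1 range. By total reads the B cell library, at 767419, was the smallest, and the lowest 3T3-L1 library held 844042.

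In B cells the region took 13.48% of distal reads (8023 reads, 95% Wilson interval 13.2 to 13.8). In the 8 3T3-L1 libraries the lowest share was 3.29%, the median 4.60% and the highest 5.62%, with a mean of 4.59% ± 0.813 (SD, n = 8). The B cell share lay above all 8 and was 2.93 times their mean. The reads were spread over many sites. The site with the most reads held 0.598% of the region's B cell reads, and the 10 highest sites together held 4.49%. The Wilson interval of this share takes every read for a separate molecule. PCR copies of 1 molecule are counted as separate reads, so the interval is too narrow even for counting error. No Wilson interval given here covers differences from library to library.

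More sites were contacted as well as more reads found. A HindIII site with at least 1 read was called captured. After every library was thinned to 22070 distal reads, B cells captured 29.0% of the 3311 sites, against 15.95% ± 2.00 (SD, n = 8) in 3T3-L1 cells, where the libraries ran from 14.1% to 19.4%. The B cell value lay above that range. As a share of all distal sites captured, without thinning, the region held 14.6% in B cells against 9.30% ± 0.610 (SD, n = 8) in the 3T3-L1 libraries, a ratio of 1.57 and smaller than the ratio of reads.

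The neighbouring stretches place the region along the chromosome. From 80 to 90 Mb the ratio of B cells to the 3T3-L1 mean was 1.74, and between 100 Mb and the dense stretch, on the side nearer the bait, it was 0.798. There 1 of 65 windows of 100 kb lay above all 8 3T3-L1 libraries in B cells and 16 lay below. In the stretch from 80 to 90 Mb 49 of 100 windows lay above all 8 and 8 below. Per 1000 HindIII sites, 3T3-L1 cells gave a mean share of 1.63% from 80 to 90 Mb, 1.39% in the region and 3.32% between 100 Mb and the dense stretch. By these means the region was lower than both neighbours. The day 6 replicate 2 library went the other way against 80 to 90 Mb. It had 5.62% over 3311 sites in the region and 4.86% over 2988 sites there. B cells gave 2.83%, 4.07% and 2.65%, so the region was higher than both. Shares of 1 total depend on each other. The stretch from 110 to 120 Mb, around the bait, took 32.2% in B cells against 50.1% ± 4.00 (SD, n = 8) in 3T3-L1 cells. From 120 to 130 Mb the ratio was 1.46, with B cells above all 8. With 3 Mb left out around the bait, the region's ratio was 2.19.

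Within the region the 10 blocks of 1 Mb differed strongly. In 3T3-L1 cells the mean share was 0.824% ± 0.152 of distal reads in the block from 90 Mb and 1.04% ± 0.248 in the block from 91 Mb. It then declined to 0.656% ± 0.115 from 92 Mb, 0.482% ± 0.139 from 93 Mb, 0.301% ± 0.0844 from 94 Mb, 0.212% ± 0.0731 from 95 Mb and 0.178% ± 0.0680 from 96 Mb. On the bait side it stood at 0.198% ± 0.0549 from 97 Mb, 0.341% ± 0.0986 from 98 Mb and 0.359% ± 0.0651 from 99 Mb (SD, n = 8 for each). So the 3T3-L1 profile was a trough, deepest from 95 to 98 Mb, and the 2 blocks nearest the bait stayed below the 3 farthest from it. Of the 56 blocks between 60 Mb and the bait, the blocks from 95, 96 and 97 Mb had the 9th, 5th and 11th lowest 3T3-L1 mean shares per HindIII site.

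In B cells this trough was filled. The B cell share was 1.08% from 90 Mb and 0.872% from 91 Mb, which were 1.31 and 0.835 times the 3T3-L1 means. It was 1.68% from 92 Mb, 2.20% from 93 Mb, 1.18% from 94 Mb, 1.75% from 95 Mb, 1.19% from 96 Mb, 0.603% from 97 Mb, 1.92% from 98 Mb and 1.00% from 99 Mb. The ratios for these 8 blocks were 2.57, 4.57, 3.93, 8.24, 6.69, 3.05, 5.63 and 2.78. B cells lay above all 8 3T3-L1 libraries in 9 of the 10 blocks and above 2 of the 8 in the block from 91 Mb. Blocks far outside the region also lay above all 8, such as those from 38 and 39 Mb, with ratios of 2.83 and 3.35. The contrast chose the region, so nothing is read from the count of blocks. Of all 125 distal blocks of chromosome 10, those from 95, 96 and 98 Mb had the 3 highest ratios.

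**Figure D1:**
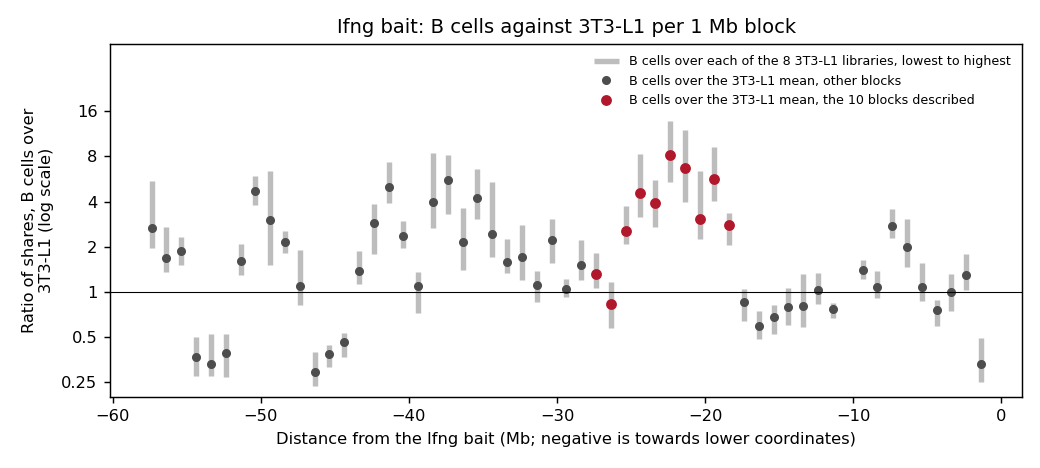
Ratio of the B cell share to the 3T3-L1 share of distal reads for the Ifng bait, per block of 1 Mb, against distance from the bait in Mb, on a log scale. Points are B cells over the 3T3-L1 mean, bars run from the lowest to the highest ratio against single 3T3-L1 libraries, and the red points are the 10 blocks described. They reach 8.24, and the next block on the bait side lies below 1.

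The block from 95 Mb shows the values behind the highest ratio. Its share was 0.126% and 0.153% on day 0, 0.314% and 0.231% on day 1, 0.158% and 0.204% on day 2, and 0.190% and 0.323% on day 6, against 1.75% in B cells. Every 3T3-L1 library lay below the B cell library. In thinned libraries B cells captured 35.7% of its 345 sites and 3T3-L1 cells 9.24% ± 2.17 (SD, n = 8).

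The order of the blocks by ratio was the same for reads and for captured sites of thinned libraries (Spearman correlation 1 over 10 blocks). Captured sites showed the same fill, with 45.7% of the sites from 93 Mb captured in B cells against 18.6% ± 4.13 (SD, n = 8) for 3T3-L1. The blocks from 90 and 91 Mb gave 26.7% and 23.8% in B cells, against 24.9% ± 4.76 and 28.3% ± 4.04 (SD, n = 8). The block from 90 Mb lay within the 3T3-L1 range by captured sites, although it lay above it by reads, and the block from 91 Mb lay just below it.

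**Figure D2:**
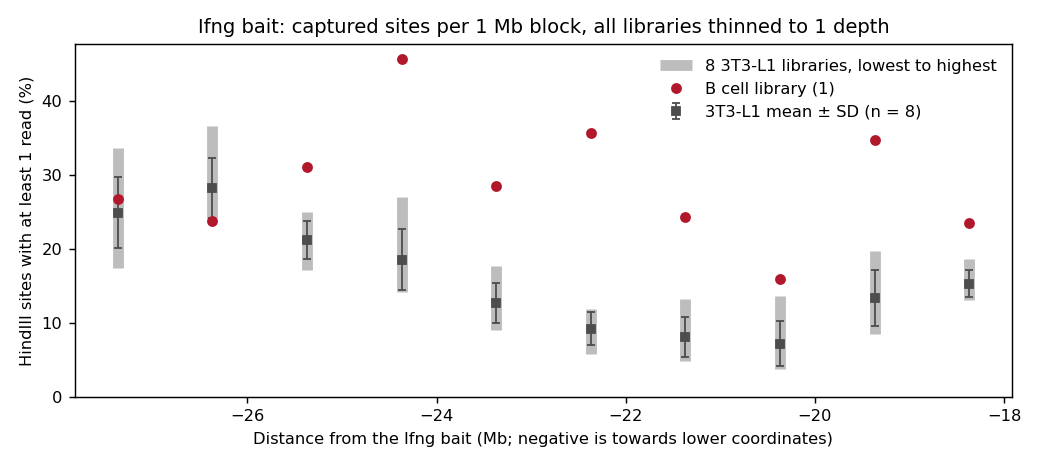
Share of HindIII sites with at least 1 read in each of the 10 blocks of 1 Mb, after all Ifng libraries were thinned to 22070 distal reads, against distance from the bait in Mb. Squares with bars are the 3T3-L1 mean ± SD (n = 8), grey bars the lowest to the highest library, and red points the B cell library, which peaks at 45.7%.

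Windows of 500 kb showed where the cell types parted. On the outer side, beyond the region, the windows from 88 and 89 Mb had ratios of 1.37 and 2.23, with B cells above all 8 libraries. Those from 88.5 and 89.5 Mb had ratios of 0.783 and 0.992. Inside the region the window from 90.5 Mb had a ratio of 1.69, with B cells above all 8 libraries. Within it the stretch from 90.5 to 90.7 Mb stood at 4.38 times. The windows beside that window, from 90, 91 and 91.5 Mb, had ratios of 0.912, 0.868 and 0.802. From 92 to 92.5 Mb the B cell share was 1.50 times the 3T3-L1 mean and from 92.5 to 93 Mb it was 4.58 times. Between these windows the 3T3-L1 mean dropped from 0.429% ± 0.0758 to 0.227% ± 0.0625 (SD, n = 8), while the B cell share went from 0.643% to 1.04%. The ratio was highest from 95.5 to 96 Mb, at 10.8 times. At the bait side the ratio went from 2.50 in the window from 99.5 Mb to 0.997 in the window from 100 Mb. There the 3T3-L1 mean rose from 0.182% ± 0.0468 to 0.700% ± 0.148 (SD, n = 8), and the B cell share from 0.455% to 0.697%.

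These borders divide the region into a part from 90 to 92.5 Mb and a part from 92.5 to 100 Mb, a division made after the values were seen and so given without a test. Per 1000 HindIII sites, the 3T3-L1 share was 2.62% ± 0.457 in the first part, 0.944% ± 0.218 in the second and 3.32% ± 0.470 between 100 Mb and the dense stretch (SD, n = 8). In B cells the same densities were 2.95%, 4.47% and 2.65%. The second part was less dense than the first in all 8 3T3-L1 libraries, at 0.259 to 0.476 times, and denser in B cells, at 1.51 times. Thus the 2 lines ordered the 3 stretches in opposite ways, with the 92.5 to 100 Mb part lowest in 3T3-L1 cells and highest in B cells.

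At 100 kb, the B cell library lay above all 8 3T3-L1 libraries in 73 of the 100 windows and below all 8 in 2. Over all 1236 distal windows of chromosome 10 the shares were 28.9% above and 16.1% below, and nothing is read from the comparison because this contrast chose the region. The median ratio was 3.74, against 0.966 over all distal windows. In the region 5 windows exceeded 10-fold, against 14 of all 1236 distal windows. From 80 to 90 Mb 3 of 100 windows did so, and the highest ratio there was 20.1. The windows above all 8 formed 3 long runs, of 19 windows from 92.5 to 94.4 Mb, 21 windows from 94.8 to 96.9 Mb and 13 windows from 97.9 to 99.2 Mb. Their summed B cell shares were 4.42, 7.28 and 5.34 times the 3T3-L1 means. Between the last 2 runs, from 97 to 98 Mb, B cell contact was low, with a median of 6 captured sites per window against 16 in the blocks from 95 and 98 Mb.

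**Figure D3:**
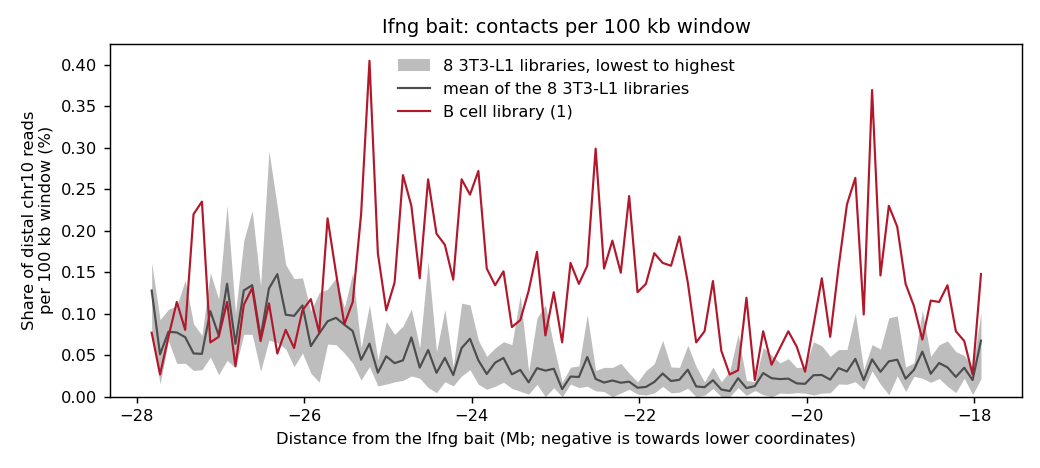
Share of distal chromosome 10 reads per window of 100 kb for the Ifng bait, against distance from the bait in Mb. The grey band runs from the lowest to the highest of the 8 3T3-L1 libraries, the dark line is their mean and the red line is the B cell library, which stands above the band in 73 of 100 windows.

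The window of the region with the highest ratio was 95300001 to 95400000 bp. It took 0.299% of distal reads in B cells (178 reads on 17 of 32 sites), and from 0.00713% to 0.0317% in the 3T3-L1 libraries, with a median of 0.0210%. The groups did not overlap, and the ratio to the 3T3-L1 mean was 13.9. The window 95700001 to 95800000 bp followed with 0.242% (144 reads on 22 of 41 sites) against a mean of 0.0182% ± 0.00772 (SD, n = 8), a ratio of 13.3. Neither rested on 1 site, since the highest site held 21.9% and 11.8% of their B cell reads.

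The windows that B cells contacted most were others. The window from 92.6 Mb led with 0.405%, against 0.0365% to 0.111% in 3T3-L1 libraries, and the window from 98.6 Mb followed with 0.370%, against 0.0311% to 0.0628%. The next were those from 95.3, 93.9 and 93 Mb, at 0.299%, 0.272% and 0.267%. Outside these 5, the named windows from 98.3 and 98.8 Mb held 0.232% and 0.230% in B cells, 7.61 and 5.39 times the 3T3-L1 means. The 5 windows with the highest 3T3-L1 means began at 91.5, 90.9, 91.2, 91.4 and 91.1 Mb, all in the part from 90 to 92.5 Mb. No window was among the 5 highest of both lines. With only 5 of 100 windows in each set, unrelated sets would often share none, so nothing is read from this.

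Only 2 windows had the B cell library below all 8. The window from 91.5 Mb, the highest in 3T3-L1 cells, took 0.0521% in B cells (31 reads) against 0.148% ± 0.0510 (SD, n = 8), and its lowest 3T3-L1 library had 0.0653%. The window from 90 Mb, at the outer edge, took 0.0773% in B cells against 0.128% ± 0.0293 (SD, n = 8). Just outside that edge the window from 89.9 Mb had a ratio of 0.655, against 0.604 for the window from 90 Mb just inside. At the bait side the window from 99.9 Mb just inside had a ratio of 2.19 and the window from 100 Mb just outside 1.06.

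On the log2 scale of the fit across all 1148 tested windows of chromosome 10 (edgeR, used here for sizes only), the median difference between B cells and 3T3-L1 cells was 1.87 in the region, against -0.06 over all tested windows. It lay above 0 in 83 of the 100 windows, against 48.8% of all. Without the TMM scaling both medians shifted up, to 2.77 and 0.79. The contrast chose the region, so nothing is read from these values.

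The B cell library also differed from the 3T3-L1 libraries in pattern and not only in level. Over the 100 windows the shares of any pair of 3T3-L1 libraries had Spearman correlations of 0.520 to 0.780 (28 pairs). B cells with each 3T3-L1 library gave -0.0833 to 0.188 (8 pairs). The windows share their HindIII sites, and the ratio of B cells to 3T3-L1 had a correlation of -0.0464 with the number of sites per window. These are descriptions over neighbouring windows, which are not independent. With 1 B cell library, no correlation within B cells can be set beside them.

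Along adipogenesis the region's share was 3.90% and 3.29% on day 0, 5.27% and 4.16% on day 1, 4.93% and 4.26% on day 2, and 5.32% and 5.62% on day 6. The 6 later libraries all lay above both day 0 libraries, while days 1, 2 and 6 were not all separate from each other. The means were 3.59% ± 0.426, 4.71% ± 0.789, 4.60% ± 0.473 and 5.47% ± 0.207 (SD, n = 2). An exact permutation test over the 4 days gave p = 0.105, above the threshold. The differences from day 0 were 1.12, 1.01 and 1.88 percentage points, each with a two-sided exact permutation p of 0.333, the smallest that 2 against 2 libraries allow, and 0.333 after adjustment over the 3. The highest 3T3-L1 share of any day stayed below the B cell share.

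The replicate numbers went with a difference between libraries. The dense stretch took 41.3% to 47.9% of the chromosome 10 reads over 1 Mb from the bait in the 4 libraries numbered 1 and 54.6% to 64.4% in those numbered 2, without overlap, and whether the numbers mark a shared batch is not stated. Among libraries numbered 1 the region's share on days 0, 1, 2 and 6 was 3.90%, 5.27%, 4.93% and 5.32%, and among those numbered 2 it was 3.29%, 4.16%, 4.26% and 5.62%, with day 0 lowest in each. With the number as a replicate block and days permuted only within each number, the exact permutation p over the 4 days was 0.0833 (smallest possible 0.0417), again above the threshold. For the part from 92.5 to 100 Mb the shares per 1000 sites in libraries numbered 1 and 2 were 0.669% and 0.663% on day 0, 1.01% and 0.918% on day 1, 0.920% and 0.929% on day 2, and 1.13% and 1.31% on day 6.

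Captured sites gave a closer grouping by day. In thinned libraries the region held 7.48% and 7.54% of captured distal sites on day 0 and 9.68% and 9.88% on day 6, with means of 8.92% ± 0.362 on day 1 and 8.70% ± 0.122 on day 2 (SD, n = 2). The exact permutation p over the 4 days was 0.0190 (smallest possible 0.00952), in an alternative chosen after the data were seen. With captured sites not thinned it was also 0.0190, and with the dense stretch kept in the total 0.543. Whether the share changed with day thus depends on how it is counted.

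**Figure D4:**
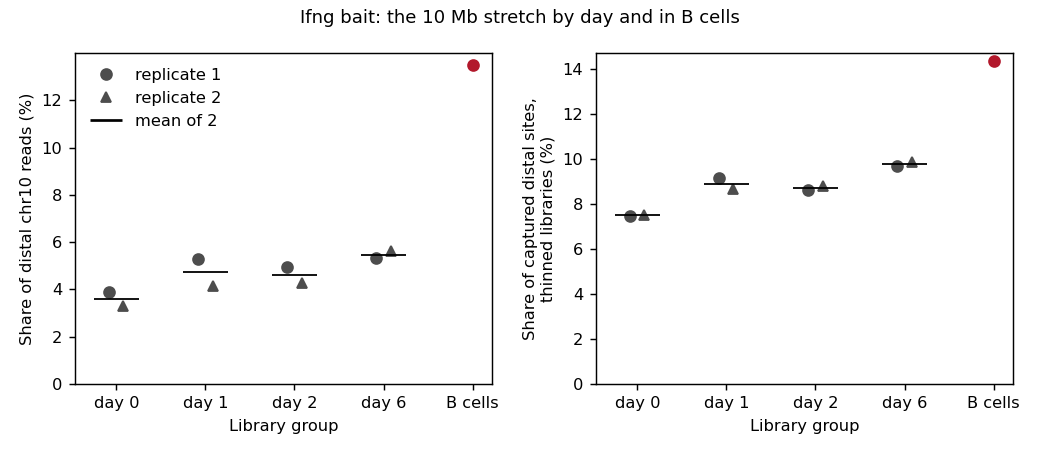
The region's share under the Ifng bait in each library, by day and in B cells, as a share of distal reads in percent (left) and as a share of captured distal sites in libraries thinned to 22070 reads (right). Circles are replicate 1, triangles replicate 2 and lines the mean of 2; day 0 is lowest in both panels and B cells are highest.

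The day differences were spread over the blocks. The block from 96 Mb went from 0.111% ± 0.0175 on day 0 to 0.271% ± 0.0430 on day 6 (SD, n = 2), and the block from 93 Mb from 0.286% ± 0.0311 to 0.619% ± 0.113. Their exact permutation p over the 4 days were 0.0381 and 0.0476. After adjustment over the 10 blocks both were 0.159, and no block passed.

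Of the 100 windows 0 were called between day 0 and day 1, day 2 or day 6 (edgeR, adjusted p under 0.05). With 2 libraries per day the fit can miss differences of moderate size, so 0 calls do not show that none exist. Over all 1148 windows 0% were called on days 1 and 2, and on day 6 1 window, or 0.0871%, which lies outside the region. At an unadjusted p under 0.05 there were 11, 10 and 14 of the 100, against 6.97%, 5.14% and 8.71% over all windows. The log2 difference was above 0 in 75, 71 and 81 of the 100, against 47.4%, 51.8% and 46.1% of all windows, and its median in the region was 0.49, 0.52 and 0.69. Without the day 6 replicate 2 library the day 6 median was 0.38, and 8 of the 100 had an unadjusted p under 0.05. Without TMM scaling the day 6 median over all windows moved from -0.09 to 0.22, and that of the region to 0.98. The 3 contrasts share the day 0 libraries and are not independent of each other. Counted by captured sites, the day 6 median was -0.02, with 36 of the 74 region windows tested above 0, and DESeq2 called 0 windows in each contrast.

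The smallest p of a window in the region belonged on day 1 to the window from 95.2 Mb. Its share was 0.0127% and 0.0201% on day 0 and 0.0987% and 0.0725% on day 1, which did not pass (log2 difference 2.48 ± 0.64 SE, adjusted p = 0.0541 by edgeR). On day 6 it was the window from 93.3 Mb, at 0.0111% and 0.0477% on day 0 and 0.0498% and 0.164% on day 6 (log2 difference 1.93 ± 0.57 SE, adjusted p = 0.111). On day 2 it was the window from 93.5 Mb (log2 difference 1.82 ± 0.59 SE, adjusted p = 0.483). In the other direction the smallest p belonged to the windows from 91.3, 99.9 and 90.8 Mb on days 1, 2 and 6, with log2 differences of -0.90, -1.01 and -1.24 and adjusted p of 0.748, 0.923 and 0.474.

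The Pparg and Lpin1 baits, on other chromosomes, did not enter the choice of the region and were used as a reference. Here a library's sites with at least 1 read on all chromosomes but the bait's own were counted, and the region's part of them was taken. For Pparg it was 0.533% in B cells (40 of 7500 sites, 95% Wilson interval 0.392 to 0.725), and in 3T3-L1 libraries 0.672% at the lowest, 0.748% at the median and 0.936% at the highest. The B cell library lay below all 8 (mean 0.773% ± 0.0816 SD, n = 8). The two-sided exact permutation p was 0.111, the smallest this design allows, so it could not reach 0.05, and 0.222 after adjustment over both baits.

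For Lpin1 the region held 0.318% in B cells (82 of 25799 sites, interval 0.256 to 0.394), and in 3T3-L1 libraries 0.373% at the lowest, 0.428% at the median and 0.567% at the highest. The B cell library again lay below all 8 (mean 0.449% ± 0.0717 SD, n = 8; exact permutation p = 0.222, and 0.222 adjusted). So the higher B cell contact under the Ifng bait was not seen under either reference bait, where the B cell values lay on the other side. Whether the baits differ in this was not tested. Counted by reads, the Pparg B cell library lay above 1 of the 8 libraries.

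A multiple is the share of sites captured in the region over the share on all chromosomes but the bait's own. The region had a multiple of 1.81 ± 0.191 for Pparg and 1.06 ± 0.170 for Lpin1 in 3T3-L1 cells (SD, n = 8), and of 1.25 and 0.753 in B cells. In 3T3-L1 cells Pparg therefore captured the region more than other chromosomes on average in each of the 8 libraries, the lowest at 1.57, while Lpin1 libraries ran from 0.884 to 1.34.

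Inside the region the reference baits had the reverse of the Ifng profile of 3T3-L1 cells. For Pparg the windows of 500 kb with the highest captured share, pooled over the 8 libraries, began at 96, 96.5 and 95 Mb, with mean multiples of 4.19 ± 1.08, 3.18 ± 1.06 and 3.23 ± 1.57 (SD, n = 8). In B cells these were 0.580, 2.42 and 1.90, from 1, 4 and 3 captured sites. The 3 highest of Lpin1 by the same pooled share lay at 95, 97 and 96.5 Mb, with mean multiples of 1.46 ± 0.758, 1.38 ± 0.736 and 1.65 ± 1.04 (SD, n = 8), and 1.49, 0.944 and 0.356 in B cells. By the mean multiple, which weights the libraries equally, the Lpin1 windows from 99 and 96 Mb, at 1.49 and 1.40, would stand above the one from 97 Mb. Under the Ifng bait these 4 different windows held 0.0597% to 0.135% of distal reads each in 3T3-L1 cells, against 0.407% to 0.528% for the 5 windows from 90 to 92.5 Mb.

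The part from 92.5 to 100 Mb had a Pparg multiple of 2.20 ± 0.281 and the part from 90 to 92.5 Mb one of 0.734 ± 0.469 (SD, n = 8). The first exceeded the second in 7 of 8 libraries, and day 2 replicate 2 had a ratio of 0.999. Between 100 Mb and the dense stretch the multiple was 0.340 ± 0.197, lower than from 92.5 to 100 Mb in 8 of 8 libraries. For Lpin1 the 3 values were 1.22 ± 0.212, 0.637 ± 0.317 and 0.392 ± 0.0968 (SD, n = 8), with 7 of 8 and 8 of 8 libraries ordered the same way and day 0 replicate 2 the exception at 0.968. In B cells they were 1.44, 0.706 and 0.961 for Pparg and 0.887, 0.381 and 0.391 for Lpin1. The counts behind the part from 90 to 92.5 Mb were small, at 1 to 38 captured sites per 3T3-L1 library for Pparg and 1 to 24 for Lpin1.

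**Figure D5:**
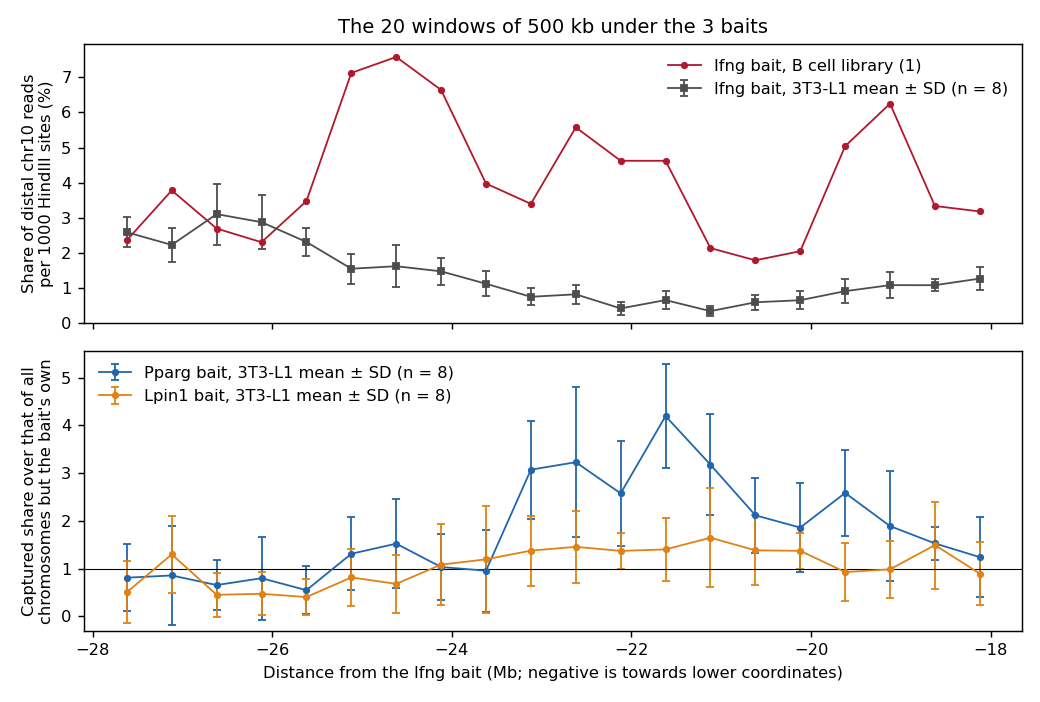
The 20 windows of 500 kb under the 3 baits, against distance from the Ifng bait in Mb. Above, the share of distal reads per 1000 HindIII sites for Ifng, as the 3T3-L1 mean ± SD (n = 8) and the B cell library; below, the captured multiples of Pparg and Lpin1 in 3T3-L1 cells (mean ± SD, n = 8), where Pparg reaches 4.19 in the trough of the Ifng profile.

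Over the 20 windows, the mean 3T3-L1 share of Ifng had a Spearman correlation of -0.872 with the mean Pparg multiple and of -0.838 with that of Lpin1. Single libraries gave -0.937 to -0.405 for Pparg and -0.708 to -0.122 for Lpin1, all negative. The ratio of B cells to 3T3-L1 under Ifng had correlations of 0.841 with Pparg and 0.555 with Lpin1, and Pparg and Lpin1 of 0.780 with each other. That ratio is divided by the 3T3-L1 share, and had a correlation of -0.678 with it over the 100 windows of 100 kb. Its values with the reference baits are therefore not separate from the negative ones above. In B cells the Ifng share had 0.398 with Pparg and 0.156 with Lpin1. The points are neighbouring windows of 1 stretch that share their HindIII sites, so these values describe the profiles only.

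Window by window the reference baits gave no calls between the lines. Of the windows with enough captured sites to be tested, 0 of 16 for Pparg and 0 of 13 for Lpin1 passed (edgeR, adjusted p under 0.05). Their median log2 differences were -0.32 for Pparg and -0.30 for Lpin1, against -0.12 and 0.12 over all windows tested. Over all windows tested 0% were called for Pparg in either direction, and for Lpin1 0.222% were higher and 0% lower. The largest reference difference with a B cell count above 0, in the Pparg window from 96 Mb, had a log2 difference of -2.52 ± 1.09 (SE, adjusted p = 0.635). B cells had 0 to 5 captured Pparg sites and 0 to 9 captured Lpin1 sites in each of the 20 windows, which limits the differences detectable at this depth.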

How the data were processed

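The authors deposited raw counts, whole numbers of reads per HindIII site with no normalisation, in 27 tables, 2 per 3T3-L1 sample and 1 per B cell sample. Per the submitters' processing notes, reads were aligned with Bowtie, and the build is mm9. The Bowtie version, read filters and removal of PCR duplicates are not given in the sources used here. The labels do not say whether the 2 libraries of a day came from separate cultures, and p-values then reflect only the spread among libraries, which may be technical. No 2 libraries of a day held identical values. The members, windows and gene list were chosen with earlier results of these data known.

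Sites within 10 kb of the bait were left out. Ifng reads were summed over windows of 100 kb, and for Pparg and Lpin1 sites with at least 1 read were summed over windows of 500 kb with a mean of at least 3. Windows were fitted per bait in R 4.3.3 by edgeR 4.0.16 (robust quasi-likelihood, TMM, filterByExpr for Ifng), 5 groups sharing 1 spread, and Benjamini-Hochberg adjustment over all tested windows. The single B cell library was assumed to vary like the 3T3-L1 libraries. DESeq2 1.42.0 was an alternative. The fit was tested on simulated data, where it missed most of the smaller changes put in. Shares were tested by exact permutation (Python 3.11.15, SciPy 1.17.1).

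Replicate numbers were not used as pairs in the fit, and the block is given as an alternative. Calls between B cells and 3T3-L1 cells under the Ifng bait, which the fit also gives, are not reported, because that contrast chose the region. Named were all 10 blocks, up to 8 windows per direction with the smallest p between the lines and the B cell library beyond all 8, the 5 windows highest in each line, the window with the smallest p per direction and day, and the 3 highest windows of 500 kb per reference bait. No mm9 genome or annotation was used here, so no sequence or gene position is given.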

Additional observations from a re-analysis of the deposited data

Results flagged for a closer look

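Among 33 groups of 8 3T3-L1 values in which a library far from the rest was looked for, 2 had one, and chance alone marks about 1 in 20. In the window from 91.4 Mb the day 1 replicate 1 library held 0.296% of distal reads, and the next highest held 0.163%. In the window from 93.3 Mb the day 6 replicate 2 library held 0.164%, and the next highest held 0.0526%. This is the library that raises the day 6 mean of that window.

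From day 0 to day 6 the share of the region under the Ifng bait was higher in both day 6 libraries than in both of day 0, by 1.88 percentage points on average, while the Pparg share of captured sites differed by -0.0525 percentage points with both day 6 libraries below both day 0 libraries. The difference between the baits was not tested. B cells lay above all 8 3T3-L1 libraries under the Ifng bait and below all 8 under Pparg (0.533% against a mean of 0.773%) and under Lpin1 (0.318% against 0.449%). These differences between baits were not tested, and the Ifng side was used to choose the region.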

How the results depend on the processing

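The B cell share stayed above all 8 3T3-L1 libraries under each alternative run. Its ratio of 2.93 was 5.52 with the dense stretch in the total, 2.19 with 3 Mb left out around the bait and 1.57 with captured sites, and 2.82 to 3.03 with 1 library left out. The 73 of 100 windows became 42 of 50 at 200 kb and 17 of 20 at 500 kb, and 73 to 76 with 1 library left out. The share over all distal windows, 28.9% at 100 kb with all 8 libraries, is not given for these other settings. These ratios and counts are of the contrast that chose the region, and their stability is no support for it. On day 1 the chromosome had 1 call without a filter, 1 with the replicate block and 3 at 200 kb, and 0 to 1 with 1 library left out. On day 6 the 1 call became 0 with DESeq2, captured sites or total reads without TMM, 7 with the replicate block, 7 at 200 kb and 0 to 2. The region had 1 call on day 1 and 1 on day 6 at 200 kb, and 0 otherwise. The day 6 difference in share was 1.88 percentage points with or without the replicate block, 1.29 with captured sites and 2.27 with captured sites thinned, each with an exact permutation p of 0.333 where the libraries were permuted freely. The permutation p over the 4 days was 0.105, and 0.0190 with either count of captured sites. With the replicate block it was 0.0381 when deviations from each number's mean were permuted over all 8 libraries, which is not exact, and 0.0833 in the exact test within numbers, added after seeing the data, which did not pass. Over 1148 windows the deviations of same-numbered libraries had correlations of -0.0299 to 0.0154, under the 0.1 at which numbers were taken as pairs, although the share of the dense stretch did differ by number. For Pparg and Lpin1 the B cell shares stayed below the 3T3-L1 mean, by 0.216 to 0.254 and 0.114 to 0.142 percentage points with 1 library left out, and 0 windows of the region were called. The cause of these shifts was not tested.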
